A study of Ovis aries with 3 samples.

Results

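The nuclear genes of oxidative phosphorylation were taken as all genes whose symbol began with NDUFA, NDUFB, NDUFC, NDUFS, NDUFV, SDHA, SDHB, SDHC, SDHD, UQCR, COX4, COX5, COX6, COX7, COX8 or ATP5, with assembly factors left out. There were 54 such genes among 26247, of which 17043 carried a symbol. The 9204 genes without a symbol were not used here, so the set may lack some subunits. The 13 mitochondrially encoded protein genes were measured beside them.

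Oxidative phosphorylation is carried out by 5 protein complexes of the inner mitochondrial membrane. Complexes I (NADH dehydrogenase) and II (succinate dehydrogenase) pass electrons to coenzyme Q, complex III passes them to cytochrome c, complex IV (cytochrome c oxidase) passes them to oxygen, and complex V (ATP synthase) uses the proton gradient to make ATP. Most subunits are encoded in the nucleus and imported, whereas a small set is encoded in the mitochondrial genome, so complexes I, III, IV and V are assembled from the products of both genomes. The rumen epithelium absorbs the short-chain fatty acids made by fermentation and oxidizes part of them, butyrate above all, in its mitochondria.

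The samples were single-cell RNA libraries of rumen epithelium from Hu sheep at 42 days of age. All lambs received milk. One group had milk only, the second had alfalfa hay introduced and the third had a concentrate starter introduced, with 1 library per diet. The labels do not say how many animals went into a library, and diet, animals and library preparation cannot be told apart. No difference between diets has a replicate check and none was tested.

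The libraries held 7032, 9543 and 9214 barcodes (milk only, hay and concentrate, the order kept throughout) with 56861548 to 63057979 unique molecular identifiers (UMIs, each standing for 1 captured RNA molecule). Between 32 and 45 barcodes of a library also occurred in another library. After removing barcodes with under 500 genes or with 20% or more mitochondrially encoded UMIs, the libraries kept 3850, 7031 and 4891 cells, whose median depth was 11021, 5887 and 8050 UMIs. Keratinocytes, the cells that build the stratified lining, made up 3432, 6998 and 4685 of them. Marker genes for basal keratinocytes were abundant in these cells, and in the largest keratinocyte class the 6 listed genes with a symbol summed to 9216 CPM (UMIs of a gene per 1000000 UMIs), against 6.33 CPM for fibroblast and 2.52 CPM for endothelial markers. The 11 keratinocyte clusters were largely split by library, and 6 of them drew over 90% of their cells from 1 library.

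For each library, the UMIs of its keratinocytes were added up and expressed as CPM or as a percentage of UMIs. Intervals are exact 95% intervals and cover counting error only. Genes reaching 10 CPM in any library were counted as measured, and a difference of at least 1.5-fold was counted as a call. Of the 54 nuclear genes, 49 were measured: 24 of 24 for complex I, 1 of 2 for complex II, 5 of 5 for complex III, 7 of 10 for complex IV, 11 of 11 for complex V, and the ATP synthase inhibitor ATP5IF1. Levels of different genes were not ranked against each other, because capture at the transcript end differs between genes.

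In keratinocytes the nuclear genes together took nearly the same share of UMIs on all 3 diets, while the mitochondrially encoded genes took a larger share with hay and with concentrate than with milk only. The nuclear share was 2.31% with milk only (95% interval 2.30 to 2.31), 2.15% with hay (2.15 to 2.15) and 2.19% with concentrate (2.18 to 2.19). The mitochondrially encoded share was 8.37%, 10.7% and 11.1%. Relative to milk only, the nuclear share was 1.07-fold lower with hay and 1.05-fold lower with concentrate, and the mitochondrially encoded share was 1.28-fold and 1.32-fold higher. For each nuclear UMI there were 3.63, 4.97 and 5.07 mitochondrially encoded UMIs in the 3 libraries. When mitochondrially encoded UMIs were left out of the total, the nuclear share over all keratinocytes remained lower, by 1.05-fold with hay and 1.02-fold with concentrate. In the largest class, keratinocytes neither cycling nor differentiated, the nuclear share was not lower on these diets, at 2.12%, 2.16% and 2.16% of all UMIs.

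Over all keratinocytes the complexes differed in their shares, and complex IV showed the widest gap between its nuclear and its mitochondrial genes. Nuclear complex IV genes took 0.513%, 0.441% and 0.426% of UMIs, which was 1.16-fold lower with hay and 1.2-fold lower with concentrate. The 3 mitochondrially encoded complex IV genes took 3.65%, 5.70% and 5.45%, which was 1.56-fold and 1.49-fold higher. Complex V went the other way for its nuclear genes, with 0.867%, 0.886% and 0.873%, 1.02-fold and 1.01-fold above milk only. Nuclear complex I took 0.671%, 0.606% and 0.656%, so it was lowest with hay, and its concentrate value was 1.02-fold below milk only per total UMI but 1.01-fold above it per non-mitochondrial UMI. Nuclear complex III took 0.171%, 0.152% and 0.157%, and complex II took 0.034%, 0.0253% and 0.0273%. The single mitochondrial complex III gene, CYTB, was 1.22-fold and 1.36-fold higher than with milk only.

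Gene by gene, most nuclear members lay slightly below their milk-only level with hay, and few passed 1.5-fold on either diet. With hay, 35 of 49 members had an interval wholly below 1 and 10 wholly above 1. With concentrate, 28 were below and 17 above. Both comparisons share the milk-only library. Such intervals were not counted over all genes, so no share stands beside these counts. For hay against milk only, 0 members were at least 1.5-fold higher and 2 were at least 1.5-fold lower, where 5.17% and 20.7% of all 4757 measured genes were. The members' median log2 ratio was -0.19, beside -0.16 for all genes. For concentrate against milk only, 2 members were higher and 0 lower, where 9.56% and 13.1% of all genes were, and the median was -0.09 beside 0.04. For concentrate against hay, 2 members were higher and 0 lower, where 13.8% and 1.93% of all genes were, and the median was 0.04 beside 0.19. The medians against milk only turned positive with at least 1000 genes per cell (0.11 for hay and 0.24 for concentrate), and for concentrate also in other keratinocytes (0.03) and cycling-like cells (0.0016). The median for concentrate against hay turned negative with median-of-ratios scaling (-0.16), with totals that left out the 50 most abundant genes (-0.03), in differentiated cells (-0.01) and as the mean of single-cell CPM (-0.02). Median-of-ratios scaling moved the median of all genes from -0.16 to 0.00 for hay against milk only.

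**Figure D1:**
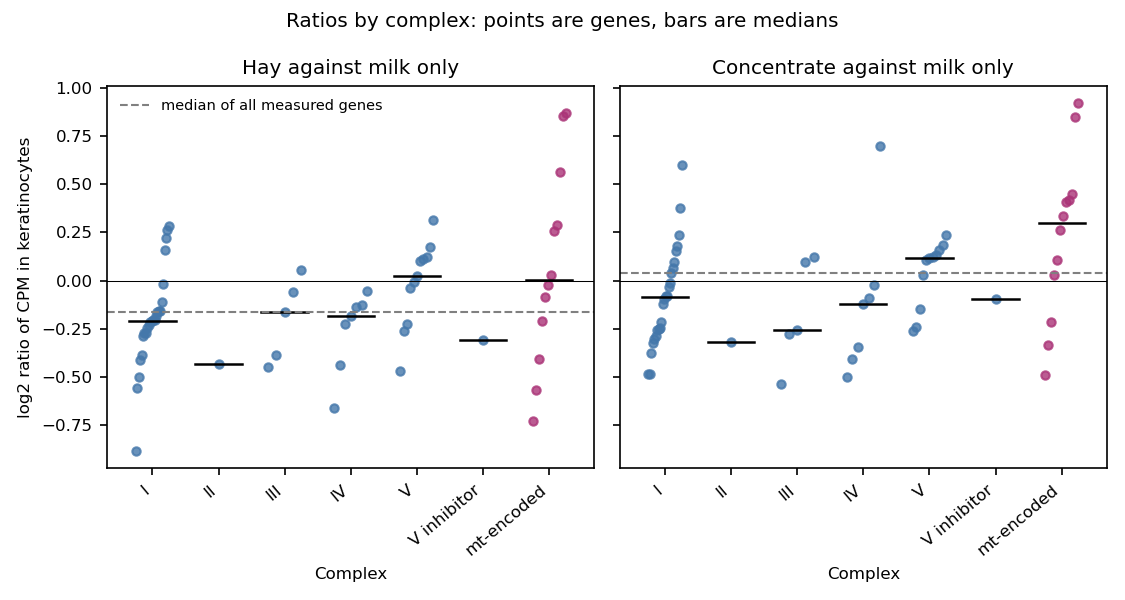
Log2 ratio of CPM in keratinocytes for each measured gene (points), by complex, with hay (left) and with concentrate (right) against milk only; black bars are medians within a complex and the dashed line is the median of all 4757 measured genes. The median of complex V lies above the dashed line on both sides, at 0.02 and 0.11, though some of its genes lie below the line. The mitochondrially encoded genes (purple, 12 measured) spread from -0.73 to 0.87 with hay.

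Among the complex I genes, which form the entry point for electrons from NADH, NDUFS3 had the lowest hay ratio. NDUFS3, a core subunit of the arm that faces the matrix, stood at 127 CPM with milk only, 68.8 CPM with hay and 109 CPM with concentrate. It was 1.84-fold lower with hay than with milk only (1.77 to 1.93) and 1.59-fold higher with concentrate than with hay (1.52 to 1.66), so the hay library stood apart. The call against hay ended with median-of-ratios scaling (log2 ratio 0.47), in cycling-like cells (0.51) and in differentiated cells (0.07). NDUFS1, the largest core subunit, had 28.4, 26.3 and 36.8 CPM and was 1.30-fold higher with concentrate than with milk only (1.21 to 1.39).

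Other complex I members differed less than NDUFS3. NDUFB2, an accessory subunit of the membrane arm, had 202, 137 and 161 CPM and was 1.47-fold lower with hay. NDUFA2, an accessory subunit, had 155, 109 and 111 CPM and was 1.41-fold lower with hay and 1.40-fold lower with concentrate. NDUFS7, a core subunit that carries an iron-sulfur cluster, had 298, 266 and 213 CPM, 1.40-fold lower with concentrate than with milk only and 1.25-fold lower than with hay. The hay and concentrate libraries were thus both below milk only for these genes. NDUFB10, an accessory subunit of the membrane arm, had 689, 598 and 812 CPM and was highest with concentrate, 1.36-fold above hay. NDUFB7 (512, 614 and 569 CPM) and NDUFB6 (289, 337 and 327 CPM), of the same arm, were above milk only on both diets, by 1.2-fold and 1.17-fold with hay and by 1.11-fold and 1.13-fold with concentrate. Of the 24 complex I genes, 18 had an interval below 1 with hay and 14 with concentrate, and 4 had an interval above 1 with hay and 7 with concentrate. Over all genes such intervals were not counted.

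Complex II was represented by SDHB, its iron-sulfur subunit, and SDHC, a membrane anchor. SDHB stood at 335, 248 and 269 CPM, 1.35-fold lower with hay (1.32 to 1.39) and 1.25-fold lower with concentrate (1.22 to 1.28). SDHC was under the 10 CPM limit in all libraries, at 4.97, 4.88 and 4.34 CPM. The levels of SDHB did not overlap between milk only and the other libraries within counting error.

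In complex III, UQCRB, a small subunit near the coenzyme Q site, had 551, 404 and 380 CPM and was 1.36-fold lower with hay and 1.45-fold lower with concentrate (1.42 to 1.48). That was the lowest concentrate ratio of any measured member. UQCR10, another small subunit, was lower on both diets too, at 75.3, 57.5 and 62.0 CPM. The core protein UQCRC1 went the other way, with 423, 440 and 452 CPM, 1.04-fold and 1.07-fold above milk only. UQCRC2, the other core protein, had 169, 151 and 141 CPM. UQCRQ, a small subunit that binds cytochrome b, had 491, 471 and 534 CPM, 1.04-fold lower with hay and 1.09-fold higher with concentrate.

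Over all keratinocytes, most nuclear complex IV genes were lower with hay and with concentrate. In the class of other keratinocytes, neither cycling nor differentiated, the complex IV median log2 ratios were -0.02 and 0.04. The medians of all genes there were -0.20 and -0.02. COX4I1, a subunit through which ATP and ADP regulate the enzyme, stood at 1849 CPM with milk only, 1363 CPM with hay and 1307 CPM with concentrate, 1.36-fold lower with hay (1.34 to 1.37) and 1.41-fold lower with concentrate (1.40 to 1.43). COX5A, on the matrix side, had 711, 646 and 537 CPM, 1.33-fold lower with concentrate than with milk only, and COX6A1 had 442, 378 and 349 CPM. COX5B differed little, with 1535, 1478 and 1512 CPM. These subunits all belong to the form of the enzyme that most tissues use. COX6B1 (500.5, 458 and 460.1 CPM) and COX8A (85.2, 74.9 and 80.1 CPM) were highest with milk only.

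Several complex IV subunits have a second form that is known from muscle, testis or lung, and these were rare here. COX4I2 was at 0.189, 0.155 and 0.180 CPM, COX6A2 at 0.210, 0.177 and 0.0225 CPM, and COX6B2 at 2.38, 4.12 and 5.23 CPM. NDUFA4L2, a relative of the complex IV subunit NDUFA4, had 0 UMIs in the keratinocytes of each library, which allows up to 3 UMIs or 0.0631 to 0.0674 CPM. COX7A1, the form known from heart and skeletal muscle, stood at 7.47, 4.72 and 12.1 CPM, so it was measured through the concentrate library alone. It was 1.58-fold lower with hay (1.33 to 1.88) and 1.62-fold higher with concentrate than with milk only (1.42 to 1.86). It was 2.57-fold higher with concentrate than with hay (2.19 to 3.02). The hay call ended with median-of-ratios scaling (log2 ratio -0.50), without the 50 most abundant genes in the totals (-0.53) and with a mitochondrial share under 10% (-0.48). The concentrate call against milk only ended with at least 1000 genes per cell (0.52), in other keratinocytes (0.51) and in cycling-like cells (0.25). Just inside the 10 CPM limit beside COX7A1 was ATP5F1D, a central stalk subunit (13.0, 14.0 and 14.2 CPM), and just outside it were COX6B2 and SDHC.

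Complex V members lay on both sides of their milk-only levels, with 5 of 11 intervals above 1 and 4 below with hay, and 7 above and 3 below with concentrate. Over all genes such intervals were not counted. ATP5F1B, the catalytic beta subunit, stood at 1331, 1652 and 1568 CPM, 1.24-fold higher with hay (1.23 to 1.25) and 1.18-fold higher with concentrate (1.17 to 1.19), the highest hay ratio of any measured member. ATP5F1A, the alpha subunit, had 769, 832 and 844 CPM, and ATP5PD, of the peripheral stalk, had 1466, 1652 and 1575 CPM, so milk only was lowest for all 3 genes. The 3 genes for subunit c, whose ring rotates as protons pass, did not behave alike. ATP5MC1 had 749, 542 and 625 CPM and was 1.38-fold lower with hay and 1.2-fold lower with concentrate. ATP5MC3 had 1274, 1090 and 1080 CPM and was lower on both diets. ATP5MC2 had 1295, 1317 and 1168 CPM, so it was 1.02-fold higher with hay and 1.11-fold lower with concentrate. The 3 genes encode the same mature subunit c and differ in their import peptides. ATP5F1E, of the central stalk, had 22.2, 18.5 and 25.2 CPM and was 1.36-fold higher with concentrate than with hay. The stalk subunits ATP5PO (1006, 1002 and 1026 CPM) and ATP5PF (587, 571 and 636 CPM) were nearly level between milk only and hay. The inhibitor ATP5IF1, which limits ATP hydrolysis when the gradient is lost, had 499, 403 and 466 CPM and was 1.24-fold lower with hay.

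**Figure D2:**
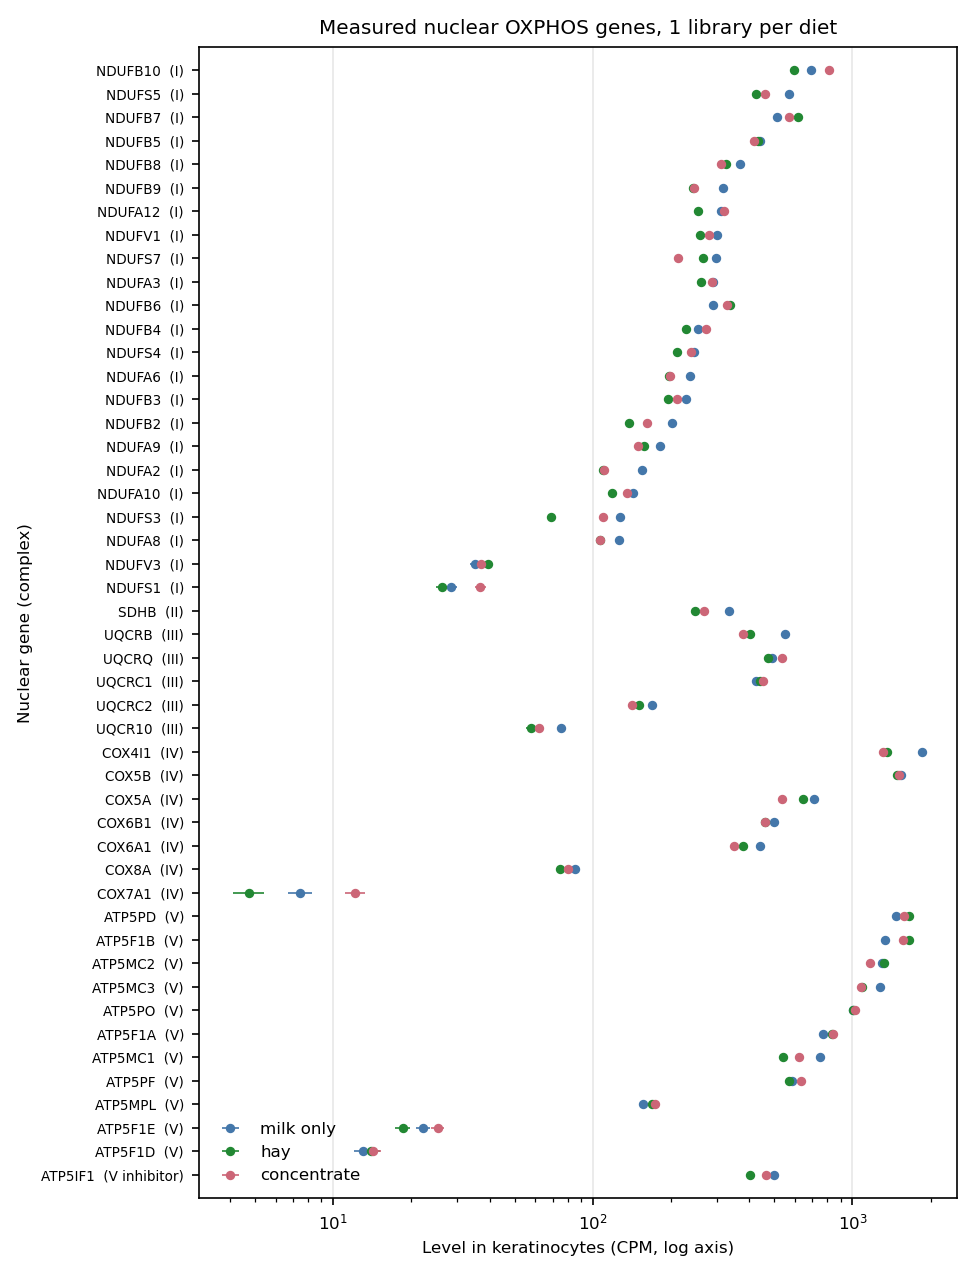
Level of 48 measured nuclear genes in keratinocytes (CPM, log axis), grouped by complex, with 1 point per library and exact Poisson 95% intervals (mostly smaller than the points). The milk-only point is farthest right for COX4I1, COX5A and UQCRB and farthest left for ATP5F1B, ATP5PD and NDUFB7.

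The mitochondrially encoded genes did not all differ in the same direction, with 6 of 12 measured genes above milk only and 6 below with hay, and 9 above and 3 below with concentrate. COX1, the catalytic subunit of complex IV, had 12715, 22953 and 22928 CPM and was 1.81-fold and 1.80-fold higher than with milk only. COX3 had 19923, 29405 and 26392 CPM, and CYTB had 18807, 22988 and 25653 CPM. These 3 genes and COX2 (3863, 4616 and 5167 CPM) were higher on both diets. ND1 (2979, 2249 and 2363 CPM) and ND3 (818, 552 and 705 CPM), both of complex I, were lower on both diets, by 1.32-fold and 1.48-fold with hay. ND4 (7186, 7332 and 9046 CPM), ND5 (859, 744 and 1029 CPM) and ND2 (5398, 5091 and 5514 CPM) were highest with concentrate. ATP6 had 11000, 10835 and 11861 CPM. ATP8, whose reading frame overlaps that of ATP6, had 90.6, 54.6 and 64.5 CPM, and ND4L, which overlaps ND4, had 2.29, 1.64 and 1.84 CPM, so the division of reads within these pairs is uncertain. ND6, encoded on the opposite strand to the other mitochondrial protein genes, had 73.1, 133 and 138 CPM. Whether the counting used strand is not given in the sources used here. Of the 12 measured genes, 2 were at least 1.5-fold higher and 1 at least 1.5-fold lower with hay, where 5.17% and 20.7% of all genes were, and 2 were higher and 0 lower with concentrate, where 9.56% and 13.1% were.

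Genes that work beside the complexes were described from lists, by the same counts, which stand beside 5.17% of all genes higher and 20.7% lower with hay and 9.56% higher and 13.1% lower with concentrate. The electron and adenylate carriers had 6 of 11 listed genes measured, with 0 higher and 2 lower on each diet. These were SLC25A4 (42.9, 26.5 and 25.1 CPM) and SLC25A5 (60.6, 33.2 and 37.3 CPM), which exchange ADP for ATP across the inner membrane. SLC25A4 was 1.62-fold lower with hay and 1.71-fold lower with concentrate, and SLC25A5 1.82-fold and 1.62-fold lower. The highest ratios of that list were those of VDAC1, the outer membrane channel (81.9, 93.6 and 99.6 CPM), and ETFDH, which feeds electrons from fatty acid oxidation to coenzyme Q (122, 137 and 161 CPM). Of 13 measured citrate cycle genes, 1 was lower with hay, IDH2 (35.2, 19.8 and 24.7 CPM), and 1 was higher with concentrate, DLD (30.7, 36.1 and 48.8 CPM). Of 18 measured assembly factors, 3 were higher and 2 lower with hay, and 2 were higher and 2 lower with concentrate. The complex III factor UQCC2 had 151, 98.4 and 164 CPM, lowest with hay. Among complex I factors, NDUFAF7 was 1.73-fold higher and NDUFAF5 1.73-fold lower with hay, and TMEM70, an ATP synthase factor, was 1.72-fold higher, from 9.87 to 17.0 CPM. With concentrate, COX10, of the heme pathway of complex IV, was 1.66-fold higher and COX11, a complex IV copper factor, 1.63-fold lower. TMEM70 and COX10 were under 10 CPM with milk only, so each counted as measured through a library where it was higher.

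Of 10 measured genes for expression of the mitochondrial genome, 2 were higher and 0 lower on each diet, where 5.17% of all genes were higher with hay and 9.56% with concentrate. TUFM, the mitochondrial elongation factor, had 249, 385 and 368 CPM and was 1.55-fold higher with hay. MTIF2, a mitochondrial initiation factor, had 21.2, 32.3 and 43.7 CPM, 1.52-fold and 2.06-fold higher. TSFM, another elongation factor, was 1.52-fold higher with concentrate. TFAM, which packages and transcribes mitochondrial DNA, differed little between milk only and hay (55.0 and 57.0 CPM). The 48 measured mitochondrial ribosome genes had medians of 0.04 and 0.07, with 3 higher and 3 lower with hay and 3 higher and 4 lower with concentrate. MRPL32 was 1.65-fold and 1.55-fold higher on the 2 diets, and MRPS25 1.72-fold and 1.90-fold lower. Of 5 measured regulators of mitochondrial biogenesis, 0 were higher and 2 were lower on each diet, where 20.7% of all genes were lower with hay and 13.1% with concentrate. SIRT1, a deacetylase that acts on the regulator PGC-1 alpha, had 27.1, 10.4 and 16.6 CPM and was 2.61-fold lower with hay, and PPRC1, a relative of that regulator, had 13.5, 8.85 and 7.35 CPM, 1.53-fold and 1.84-fold lower. PPRC1 passed the 10 CPM limit only through milk only, where it was high, so its calls lean on that limit. PPARGC1B, another relative, had 32.7, 35.7 and 40.2 CPM. In protein import, 0 of 9 measured genes were called with hay and 1 was lower with concentrate, TIMM10, by 1.76-fold, while the matrix chaperone HSPA9 was 1.46-fold and 1.39-fold higher. In glycolysis, PKM had 353, 212 and 442 CPM, lowest with hay, and 2 of 7 measured genes were lower with hay and 1 with concentrate. Beside these, the 24 measured cytosolic ribosome genes had medians of 0.22 with hay and 0.06 with concentrate and 1 call, for RPS19BP1 with hay, which encodes a binding partner of a ribosomal protein and passed the limit only through milk only (10.8, 5.77 and 8.11 CPM).

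Within the keratinocyte classes, the nuclear share differed between libraries mainly in the differentiated cells. Clusters were named from marker lists. The variable genes used for clustering were chosen with the members not left out, so class differences are a description. Other keratinocytes, neither cycling nor differentiated (2555, 6017 and 3981 cells), had nuclear shares of 2.12%, 2.16% and 2.16%, which lay within 1.02-fold of each other. Their mitochondrially encoded shares were 8.28%, 10.8% and 11.2%, so that difference was as large within this class as over all keratinocytes. Cycling-like cells (210, 957 and 668) had nuclear shares of 2.19%, 2.09% and 2.25%. Differentiated cells (667, 24 and 36), which carried cornification markers, had 3.14%, 2.53% and 2.47%. Milk only was 1.24-fold above hay and 1.27-fold above concentrate in that class, with only 24 and 36 cells behind the other libraries. These were shares of all UMIs, of which mitochondrially encoded genes took 9.35%, 15.4% and 13.2% in that class. The part of that total in the gap was not tested. Genes on the neutrophil list summed to 16703 CPM in the differentiated cells and 382 CPM in other keratinocytes, with 3 of 6 genes at 0 in the differentiated cells, and the part of other cells in these values was not tested.

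In other keratinocytes the calls were as few as over all keratinocytes. For hay against milk only, 0 members were higher and 2 lower, where 5.54% and 22.8% of 4690 measured genes were, and the median log2 ratio was -0.06 beside -0.20 for all genes. For concentrate against milk only, 1 member was higher and 0 lower, where 8.51% and 14.2% of genes were, with a median of 0.03 beside -0.02. For concentrate against hay, 2 members were higher and 0 lower, where 13.6% and 2.20% of genes were, with a median of 0.02 beside 0.17. COX4I1 was below its milk-only level with hay and with concentrate in each keratinocyte class, at 1768, 1393 and 1324 CPM in other keratinocytes, 1546, 1229 and 1221 CPM in cycling-like cells and 2362, 1649 and 1596 CPM in differentiated cells. NDUFS3 was lowest with hay in other keratinocytes (108, 60.7 and 99.0 CPM) and in cycling-like cells (155, 101 and 144 CPM).

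The milk-only library held enough differentiated cells to set them beside the other keratinocytes of the same library. Those other keratinocytes were mixed in nuclear share, with clusters at 1.56%, 1.65%, 2.92% and 3.49%, beside 3.14% in the differentiated cells. Of 48 measured nuclear members, 23 were at least 1.5-fold higher in the differentiated cells and 0 were lower, where 16.5% and 36.5% of 4745 measured genes were higher and lower. The members' median log2 ratio was 0.58, beside -0.30 for all genes and -0.09 for the mitochondrially encoded genes. UQCRB stood at 992 against 457 CPM, 2.17-fold higher (2.11 to 2.23), and NDUFB7 at 913 against 427 CPM, 2.14-fold higher. NDUFA3 was 2.01-fold higher, and NDUFA2 and ATP5MC1 were each 1.91-fold higher. The median was above 0 for all complexes, at 0.56 for complex I, 0.72 for complex III, 0.75 for complex IV and 0.45 for complex V. NDUFV3 (31.2 against 31.7 CPM) and ATP5MC2 (1326 against 1310 CPM) were nearly level. ND6 went far the other way, at 13.8 against 84.2 CPM. Summed over cells, as the ratios were, the mitochondrially encoded share was 9.35% in these differentiated cells and 8.28% in other keratinocytes, whereas the median per cell was 3.58% and 6.78%.

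Immune and stromal cells had lower nuclear shares than keratinocytes in the same library. T or NK-like cells had 0.999% with milk only and 0.969% with concentrate. Macrophage or dendritic-like cells had 1.18%, 1.43% and 1.19%, and in the concentrate library endothelial-like cells had 1.24% and fibroblast-like cells 1.02%. Low shares were not limited to these classes. A keratinocyte cluster led by DLK2 and SNCAIP had 1.56%, 1.24% and 1.18%, within or below their range with hay and with concentrate. In the milk-only library, 44 of 48 measured members were at least 1.5-fold lower in T or NK-like cells than in other keratinocytes and 0 were higher, where 33.0% and 34.0% of 5395 measured genes were lower and higher. The median was -1.18 for the members, 0.05 for all genes and -0.40 for the mitochondrially encoded genes. Keratins and other basal markers summed to 442 CPM in T or NK-like cells against 9216 CPM in other keratinocytes, and the part of free keratinocyte RNA was not tested.

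**Figure D3:**
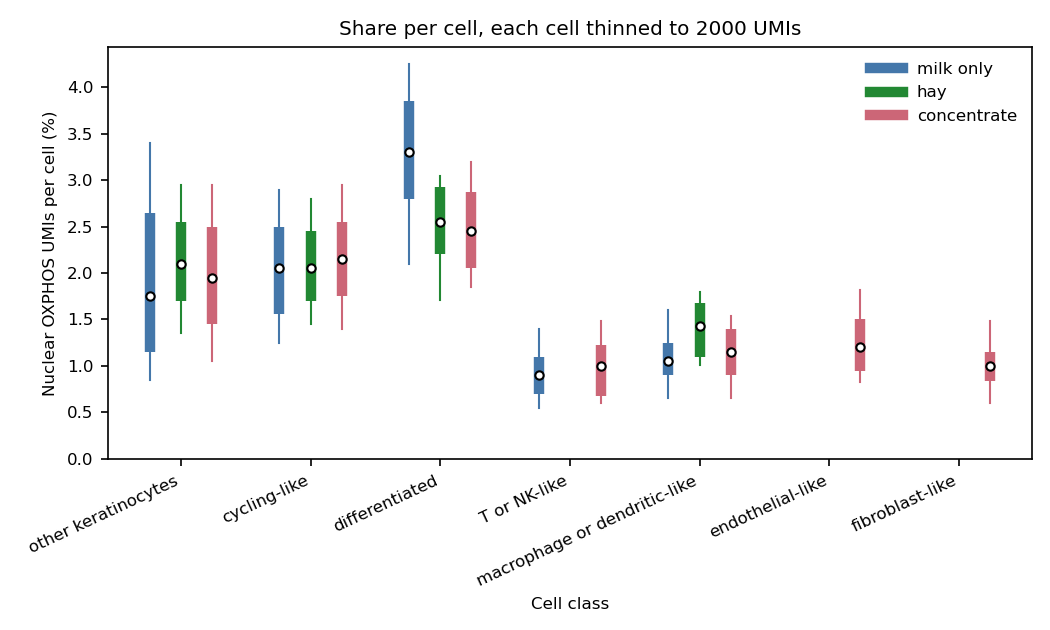
Nuclear oxidative phosphorylation UMIs per cell (% of UMIs), each cell thinned to 2000 UMIs, by cell class and library; dots are medians, thick bars run from the 25th to the 75th percentile and thin lines from the 10th to the 90th. Medians lie between 1.75% and 2.15% in other and cycling-like keratinocytes, at 3.3% in milk-only differentiated cells and between 0.9% and 1.43% in immune and stromal cells.

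Cells of the milk-only library were more spread in their nuclear share than those of the other libraries. With each cell thinned to 2000 UMIs, the 10th percentile, median and 90th percentile over all keratinocytes were 0.90%, 2.0% and 3.7% with milk only, 1.4%, 2.1% and 2.9% with hay, and 1.1%, 2.0% and 2.95% with concentrate. Thinning left out 219, 0 and 69 shallower cells. The unthinned medians were 2.17%, 2.10% and 2.03%. Summed by cluster, the nuclear share spanned 2.24-fold over 6 keratinocyte clusters with milk only, 2.25-fold over 8 with hay and 2.46-fold over 9 with concentrate, counting clusters with at least 20 cells in the library. These spans were wider than any difference between diets over all keratinocytes.

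The clusters at the ends of that range carried distinct leading genes. A milk-only cluster of 1084 cells, led by stress and early-response genes including ZFP36, ATF3, IRF1 and SOCS3, had a nuclear share of 1.65%. A milk-only cluster of 838 cells led by GPNMB and GSTA1 had 2.92%. Cells led by DLK2, SNCAIP and DCN, the last better known from fibroblasts, had 1.56%, 1.24% and 1.18%. A cluster with heat-shock and early-response genes in front, HSPA6, FOSB and HSPA1A, found almost wholly in the hay and concentrate libraries, had 1.75% and 1.39% there. Without the ZFP36 and ATF3 cluster, the median log2 ratio of the members was -0.41 for hay and -0.30 for concentrate against milk only, and 8 and 7 members were at least 1.5-fold lower. Calls over all genes are not given for that setting. With a minimum of 1000 genes per cell instead, the medians were 0.11 and 0.24, so the direction against milk only was not the same under both settings.

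A small cluster with high nuclear and very low mitochondrially encoded shares was found in all 3 libraries. It held 58, 282 and 110 cells, was led by PRD-SPRRII, AKR1D1 and CROT, had a median of 2771 UMIs per cell, and fell under other keratinocytes by default. PRD-SPRRII and KRTDAP were among the 10 leading genes of both this cluster and the differentiated cells. Its nuclear shares of all UMIs were 3.49%, 2.78% and 2.90%, the highest of any keratinocyte cluster in each library. Its mitochondrially encoded shares were 2.41%, 0.739% and 0.629%, so there were 0.690, 0.266 and 0.217 mitochondrially encoded UMIs per nuclear one. A low mitochondrially encoded share by itself raises the nuclear share of all UMIs. The rank is stated for this total, and ranks per non-mitochondrial UMI are not given. With hay, the differentiated cells had 2.53% nuclear beside 15.4% mitochondrially encoded UMIs. Without the cluster of low mitochondrial share the members' medians were -0.19, -0.09 and 0.04 for the 3 comparisons.

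**Figure D4:**
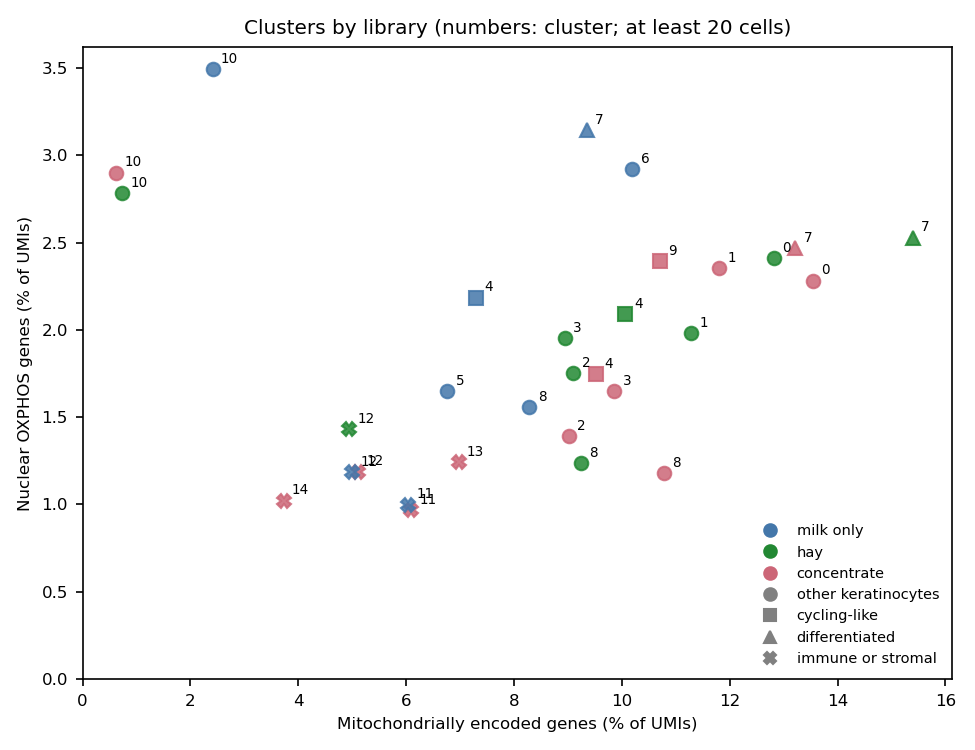
Nuclear oxidative phosphorylation share against mitochondrially encoded share (both % of UMIs) for each cluster and library with at least 20 cells; color is the library, shape the cell class and the number the cluster. Cluster 10 stands apart at the upper left with mitochondrially encoded shares of 0.629% to 2.41%, and immune and stromal clusters lie at the bottom left.

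Across clusters the nuclear complexes kept step with each other more than with the mitochondrial genome. Over 23 points (11 keratinocyte clusters by library), complex I and complex III shares had a Pearson correlation of 0.99, complex I and V of 0.94, complex I and IV of 0.94, and complex IV and V of 0.84. The Spearman values were 0.99, 0.96, 0.95 and 0.90. The nuclear and mitochondrially encoded shares had a Pearson correlation of -0.29 and a Spearman value of 0.04, and 0.41 and 0.51 over 20 points without the cluster of low mitochondrial share. Points share libraries and totals, so these are descriptions across clusters and carry no p-value.

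Over all deposited barcodes, before any filter, the nuclear share varied with the mitochondrially encoded share. Barcodes under 1% mitochondrially encoded had nuclear shares of 3.41%, 2.74% and 2.89%. From 1% to 5% the shares were 1.92%, 2.24% and 2.02%, and from 5% to 10% they were 2.16%, 2.04% and 2.15%, so the order was not a steady one. Between 10% and 20% the shares were 2.51%, 2.23% and 2.18%, and between 20% and 40% they were 1.54%, 1.96% and 1.60%. Per non-mitochondrial UMI they were 2.91%, 2.59% and 2.52%, then 2.14%, 2.67% and 2.21%, so on that measure hay did not fall. From 40% to 60% the shares of all UMIs were 0.239%, 0.749% and 0.396%, and at 60% or more 0.177%, 0.289% and 0.163%. Per non-mitochondrial UMI, barcodes from 40% to 60% had 0.467%, 1.46% and 0.801% and those at 60% or more 0.521%, 0.810% and 0.470%, so the last step was downward with hay and with concentrate and upward with milk only. Those barcodes had medians of 128, 245 and 131 genes.

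**Figure D5:**
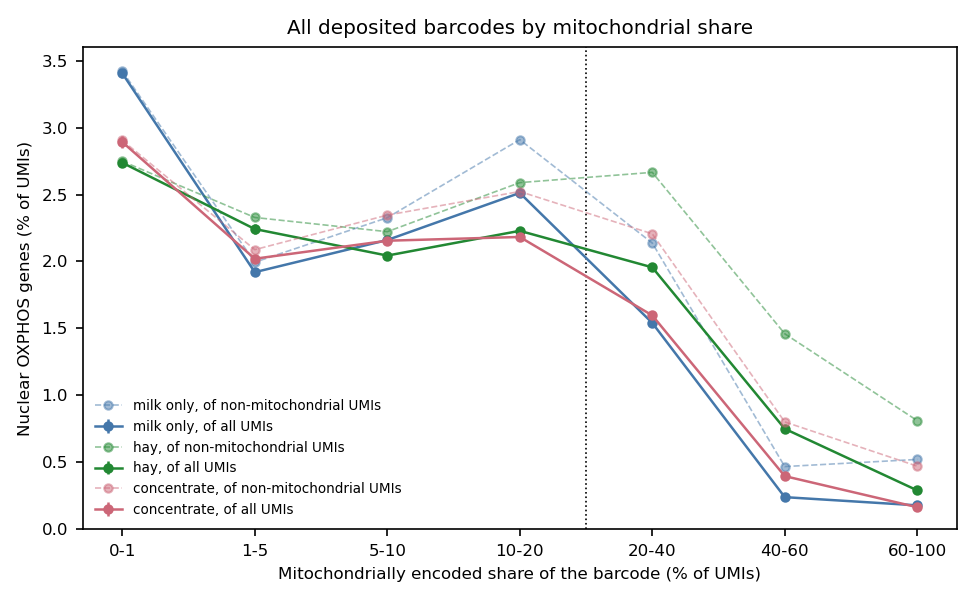
Nuclear oxidative phosphorylation share (% of UMIs) of all deposited barcodes, binned by their mitochondrially encoded share, for each library; solid lines are shares of all UMIs with exact 95% intervals, dashed lines shares of non-mitochondrial UMIs, and the dotted vertical line is the 20% limit for cells. In all 3 libraries the solid line runs from 2.74% or more in the first bin to 0.289% or less in the last.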

How the data were processed

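The authors deposited UMI counts, not normalized, made with Cell Ranger (3.1 per the submitters' processing notes, 5.0.0 per the file headers). For the build, annotation and barcode selection the sources used here give nothing. Groups were taken from the sample titles and gene symbols from the deposited files. Barcodes needed 500 genes or more and less than 20% of UMIs from the 13 mitochondrially encoded genes. Doublets were not called and stay in. Clustering used values scaled to 10000 per cell and log-transformed, 2000 variable genes chosen within libraries, 30 components, 15 neighbours and Leiden resolution 0.6, without integration (Python 3.11.15, scanpy 1.11.5, leidenalg 0.10.2, numpy 2.4.6, scipy 1.17.1, pandas 2.3.3, matplotlib 3.10.9).

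To name a cluster, a marker list had to have 3 or more markers reaching 20 CPM and 3 or more that exceeded other cells 2-fold, and where several lists qualified the largest median fold decided. Spinous and granular lists were joined as differentiated, and unnamed clusters counted as other keratinocytes by default. Class names were rebuilt this way after the data were seen. Intervals at 95% were exact Poisson (levels), exact conditional binomial (ratios) and Clopper-Pearson (shares), cover counting error only, and take 3 UMIs as the limit behind a 0. No test between diets was possible with 1 library each. The interval script was checked on simulated data.

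The members, lists and procedures were chosen with earlier results of these data known. The naming rule took, per comparison, the 5 top and 5 bottom members by ratio, the extremes per complex, complex II, paralogues, subunit c and inhibitor genes, mitochondrially encoded genes, members near the 10 CPM limit and extremes of the partner lists. Further members were named after their values were seen. A planned search for promoter motifs was not run. Of 20 alternatives, 18 were planned and 2 added after seeing the data, namely leaving out clusters 5 and 10. The values of 1 measured member are not reported here, although it is in the counts, sums and medians.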

Additional observations from a re-analysis of the deposited data

Results flagged for a closer look

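Barcodes that the cell filters left out still carried the nuclear genes. Their nuclear share of UMIs was 1.06% with milk only (3182 barcodes), 1.65% with hay (2512 barcodes) and 1.02% with concentrate (4323 barcodes), above the limit that a count of 0 allows, and these barcodes entered no comparison. Mitochondrially encoded genes took 36.5%, 32.2% and 39.6% of their UMIs. Those left out only for having under 500 genes had nuclear shares of 2.72%, 1.99% and 2.56%.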

How the results depend on the processing

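No paired analysis was possible because each diet had 1 library. Medians are log2 ratios, and the cause of each change was not tested. Hay against milk only (-0.19, 0 higher, 2 lower): the median was -0.027 with median-of-ratios scaling (1 lower), -0.048 with totals without the 50 most abundant genes (1 higher, 1 lower), 0.11 with at least 1000 genes per cell (1 higher), -0.055 in other keratinocytes, -0.33 in differentiated cells (2 higher, 11 lower) and -0.41 without cluster 5, the ZFP36 and ATF3 cluster (8 lower). A minimum of 1 CPM gave 1 higher, and 50 CPM and a mitochondrial share under 10% gave 1 lower each. Of all 4395 genes measured in differentiated cells, 1062 were higher and 1038 lower with hay. Concentrate against milk only (-0.09, 2 higher, 0 lower): the median was -0.021 without the 50 most abundant genes, -0.0002 with a mitochondrial share under 10%, 0.24 with at least 1000 genes (4 higher), 0.027 in other keratinocytes (1 higher), 0.0016 in cycling-like cells, -0.34 in differentiated cells (0 higher, 7 lower), -0.16 as the mean of single-cell CPM (1 higher, 2 lower) and -0.30 without cluster 5 (1 higher, 7 lower). Median-of-ratios scaling and 50 CPM gave 1 higher each. Of all 4395 genes in differentiated cells, 796 were higher and 1119 lower with concentrate than with milk only. Concentrate against hay (0.04, 2 higher, 0 lower): the median was -0.16 with median-of-ratios scaling (1 higher), -0.032 without the 50 most abundant genes, 0.075 under 10% and 0.012 with no maximum of the mitochondrial share, 0.060 with at least 1000 genes, 0.11 in cycling-like cells (1 higher), -0.011 in differentiated cells (3 lower) and -0.024 as the mean of single-cell CPM. At least 50 CPM gave 1 higher. Of all 4395 genes in differentiated cells, 865 were higher and 1207 lower with concentrate than with hay. Against the median of all genes, the members lay between -0.37 and 0.30 for hay, -0.35 and 0.27 for concentrate, and -0.23 and 0.10 for concentrate against hay over the 20 alternatives. NDUFS3 with hay was at least 1.5-fold lower in 19 alternatives, and in differentiated cells its log2 ratio was -0.21. For hay against milk only, the median of the mitochondrially encoded genes was 0.0036. That median was 0.0080 with no maximum of the mitochondrial share, 0.24 with at least 1000 genes and -0.098 without cluster 5.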
